A study of Ophiorrhiza pumila with 6 samples.

Results

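Hairy roots of *Ophiorrhiza pumila* in which *OpERF2* was the target of RNA interference (ERF2i) were compared here directly with hairy roots in which *OpERF1* was the target (ERF1i), and hairy roots with a construct against the bacterial reporter β-glucuronidase (GUSi) were placed relative to both. *O. pumila* is a medicinal herb of the coffee family, and its hairy roots, induced by *Agrobacterium rhizogenes* and grown in liquid culture, make the anticancer alkaloid camptothecin. All lines were sampled at an age of 3 weeks, and all arose from infection with bacteria that carried an Ri plasmid and a hairpin vector with hygromycin and kanamycin resistance. The ERF2i group holds lines ERF2i-2 and ERF2i-3, the ERF1i group ERF1i-7 and ERF1i-19, and the GUSi group GUSi-9 and GUSi-10, so the comparison rests on 4 of the 6 libraries of the series. Each line was a separate transformation event with 1 library, and the ERF lines were picked by the authors for the lowest target level in qRT-PCR. All p-values therefore measure the spread between 2 lines per construct and no spread within a line. Groups of values below are given in this order of lines. The sources number the 2 ERF2i lines in opposite ways. The sample titles were followed here, and no value of a group depends on that choice, while a value given for 1 ERF2i line, or without it, does.

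Ethylene response factors (ERFs) are plant transcription factors with an AP2 DNA-binding domain. *OpERF1* belongs to the group VII ERFs, whose *Arabidopsis* members RAP2.2 and HRE1/2 act in low-oxygen signalling, and *OpERF2* to the group IX ERFs, whose relatives ORCA3 of *Catharanthus roseus* and JRE4 of tomato switch on alkaloid genes in response to jasmonate. Camptothecin is a monoterpenoid indole alkaloid: the plastidial methylerythritol phosphate (MEP) pathway feeds geraniol into the iridoid secologanin, tryptophan decarboxylase supplies tryptamine, and strictosidine synthase joins both to strictosidine.

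The sequences shown for the targets are the qRT-PCR primers with which the study measured them, printed 5′ to 3′. Their place on the contigs was not checked.
OpERF1 forward: caagaggagacagccgtagg
OpERF1 reverse: tacagaggcgttgtggagtg
OpERF2 forward: tcctcacttgattggctctaac
OpERF2 reverse: ctggtattgaacgcctcctc
Reads were aligned to a *de novo* transcriptome, so a contig ID stands below for each transcript, no genome position is given, and contigs that share the start of an ID up to the g number (1 assembly gene) share reads.

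The *OpERF1* contig (c15284_g1_i1) was low in both ERF1i lines, as its targeting there would give, and above GUSi in both ERF2i lines. It had 905 and 766 CPM in ERF2i, 4.06 and 22.01 CPM in ERF1i and 228 and 149.9 CPM in GUSi (CPM are counts scaled to a common library size, with TMM as a correction for library composition). Neither ERF1i line reached a GUSi line, and both ERF2i lines stood above them. ERF2i exceeded ERF1i at this contig (log2 difference 6.01, SE 0.72, adjusted p = 0.00315, edgeR's quasi-likelihood test), and GUSi lay between. The *OpERF2* contig (c17706_g2_i1) did not separate the groups. It had 12 and 55 counts in ERF2i, 40 and 109 counts in ERF1i and 63 and 35 counts in GUSi, with ERF2i-3 inside the range of the other lines and ERF2i-2 below it (log2 difference −0.89, SE 0.71, adjusted p = 0.412). Without ERF1i-19 the sign of its difference turned, at 0.05. A sister contig (c17706_g2_i2) held 0 and 0 counts in ERF2i, 6 and 11 counts in ERF1i and 5 and 3 counts in GUSi. The contig c17706_g1_i1 held 0 and 0 counts in ERF2i, 2 and 19 counts in ERF1i and 5 and 3 counts in GUSi, both too few to be tested. Lower *OpERF2* in ERF2i was thus not detectable at the main contig, and the contigs at 0 in ERF2i had few reads in any line. Transcripts of the hairpin itself may be counted at a target contig, and their part was not tested.

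The groups also differed in the Ri T-DNA genes that were read in their lines. Contigs of the right Ri T-DNA, whose genes make the opines agropine and mannopine, were nearly absent in ERF1i. The contig c31834_g1_i1, described as phosphosugar isomerase, is taken here as agropine synthesis conjugase. It held 17237 and 8951 counts in ERF2i, 2 and 3 counts in ERF1i and 7383 and 7767 counts in GUSi. The *rolB*-like gene of the same T-DNA (c27304_g1_i1) had 663 and 311 counts in ERF2i, 1 and 1 counts in ERF1i and 351 and 299 counts in GUSi. Contigs described as indole acetimide hydrolase, a bacterial enzyme of auxin synthesis, had the same pattern. The contig c23136_g1_i1 held 125 and 65 counts in ERF2i, 0 and 0 counts in ERF1i and 131 and 121 counts in GUSi. The contig c12981_g1_i2 held 95 and 42, 0 and 0, and 76 and 84 counts in the same order. Genes of the left Ri T-DNA, which drives root formation, were read in every line, with *rolB* (c30113_g1_i1) at 671 and 683 counts in ERF2i, 885 and 654 counts in ERF1i and 1084 and 1692 counts in GUSi. Absence of the right T-DNA and the ERF1i construct cannot be told apart in these lines, so every difference between ERF2i and ERF1i below is also one between lines with and without it. A β-glucuronidase contig (c26211_g1_i1) had 343 and 1024 counts in ERF2i, 331 and 632 counts in ERF1i and 197 and 899 counts in GUSi and so does not mark the GUSi lines.

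Markers of root tissue were present in all lines, and the sum over markers of shoot and green tissue was highest in ERF1i. The 75 root marker contigs (Casparian strip proteins, SCARECROW, SHORT-ROOT, auxin efflux carriers and others) summed to 1262 and 1213 CPM in ERF2i, 1365 and 1085 CPM in ERF1i and 1235 and 1385 CPM in GUSi. These sums hold the 4 contigs of 1 auxin efflux carrier (c32378_g1), with 251 and 244 CPM in ERF2i, 17.4 and 7.49 CPM in ERF1i and 37.3 and 33.4 CPM in GUSi. Without this carrier, a split chosen after its values were seen, the other 71 summed to 1010 and 969 CPM in ERF2i, 1347 and 1077 CPM in ERF1i and 1198 and 1352 CPM in GUSi, so the ERF2i lines were the lowest, and the part of this in the results below was not tested. The 71 contigs of shoot and green tissue (chlorophyll-binding proteins, photosystem subunits, YABBY, protodermal factors, KNOTTED-like) summed to 391 and 446 CPM in ERF2i, 558 and 776 CPM in ERF1i and 449 and 409.7 CPM in GUSi, with 14 and 6 of them at 0 in ERF2i, 4 and 5 in ERF1i and 11 and 12 in GUSi. The most read of them were c32216_g2_i1 and c32216_g2_i2, described as class 2 knotted1-like, and no sum without them was made. The contig c32216_g2_i1 had 1582 and 1751 counts in ERF2i, 1844 and 1885 in ERF1i and 1898 and 1697 in GUSi. Not every member was highest in ERF1i: light harvesting protein 3 (c18800_g1_i1) had 86 and 56, 46 and 67, and 15 and 5 counts in this order. In whole roots, more cells of a type and more RNA per cell cannot be told apart.

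**Figure D1:**
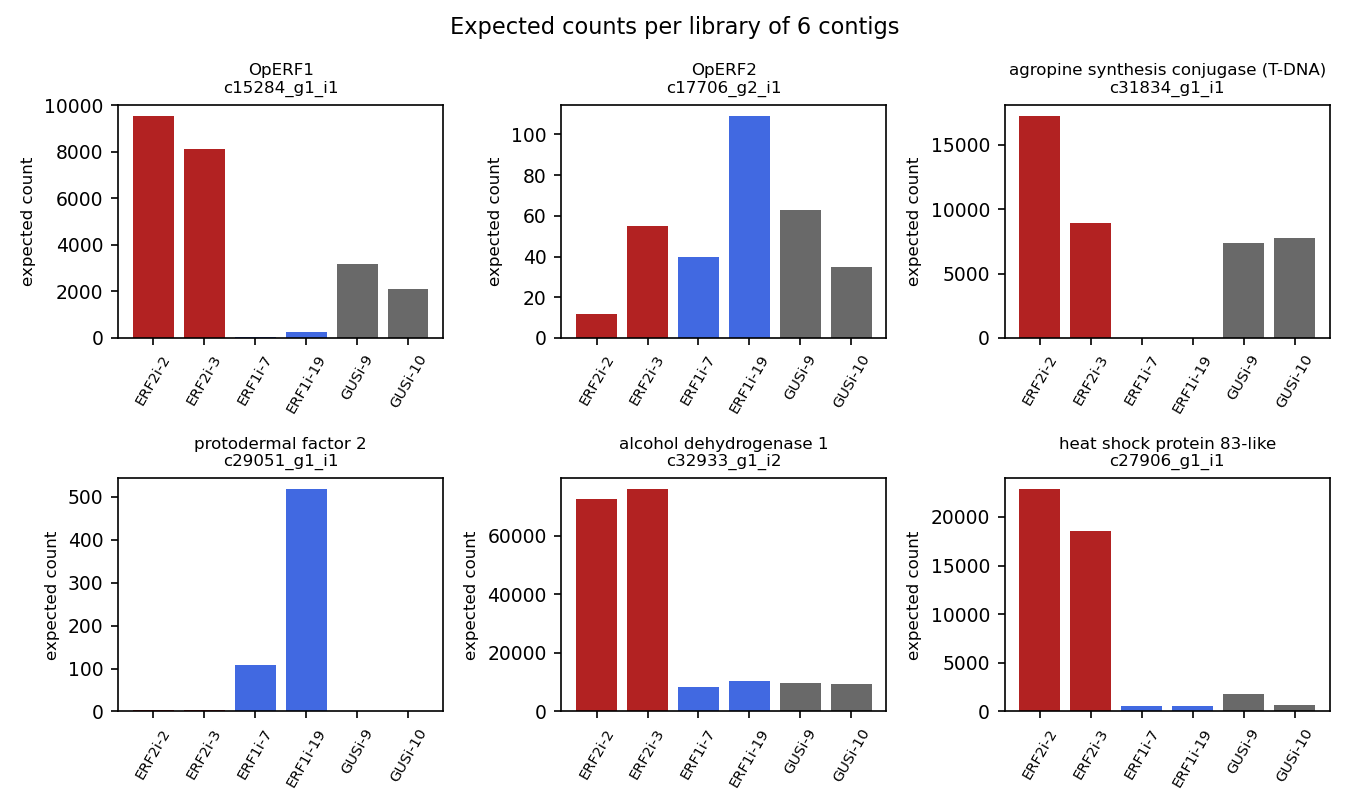
Expected counts per library (vertical axes, linear and starting at 0) of *OpERF1*, *OpERF2*, agropine synthesis conjugase, protodermal factor 2, alcohol dehydrogenase 1 and heat shock protein 83-like, with 1 bar per line and ERF2i in red, ERF1i in blue and GUSi in grey. *OpERF1* and the right T-DNA gene (c31834_g1_i1, described as phosphosugar isomerase) are nearly empty in both ERF1i lines, and *OpERF2* overlaps between the groups. Protodermal factor 2 is read mostly in ERF1i-19, and the last 2 contigs are high in both ERF2i lines.

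Of 33270 plant contigs tested, 3527 were higher (10.6% of those tested) and 2999 lower (9.01%) in ERF2i than in ERF1i at an adjusted p under 0.05 (edgeR's quasi-likelihood test, Benjamini-Hochberg), together 6526 contigs (19.6%) of 5356 assembly genes. A log2 difference of at least 1 was met by 1757 of the higher and 1368 of the lower contigs, and one of at least 2 by 499 and 411. In all 6526 both lines of one construct lay beyond both of the other, which held for 64.1% of all contigs tested. The last contig inside the threshold (c25111_g1_i2, log2 difference 0.39) had an adjusted p of 0.04999, and the next (c21521_g1_i1, log2 difference −1.57) one of 0.05002. The count fell most with an ERF2i line left out, a fit that takes its spread from the ERF1i and GUSi pairs alone. The ERF2i lines were the closest pair, with a Euclidean distance on log2 CPM of 72.6, against 97.9 in ERF1i and 79.5 in GUSi. The part of this spread in the fall of the count was not tested. The balance of directions rests on the scaling, since 54.1% of the calls were higher with TMM (median log2 difference −0.01 over all contigs), 31.9% with library totals alone (median −0.17) and 34.0% by limma on log2(FPKM + 1) (median −0.13).

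In fitted level GUSi lay on the side of ERF1i for most of what separated the ERF groups, while a test placed it there in 1771 of 6526 contigs. Among the 6526 contigs the fitted GUSi level was between those of ERF2i and ERF1i in 3850 (59.0%), beyond ERF1i in 2364 (36.2%) and beyond ERF2i in 312 (4.78%). On the log scale the median contig had GUSi at 15.3% of the way from ERF1i to ERF2i, at 10.5% for contigs higher in ERF2i and 20% for those lower. The contrast of GUSi against the midpoint of the ERF groups put GUSi off the midpoint towards ERF1i in 1771 contigs and towards ERF2i in 152, and not off it in 4603 (adjusted p under 0.05, edgeR, a call made in 11.9% of all contigs tested). Of contigs higher in ERF2i, 1180 had GUSi nearer to ERF1i and 73 nearer to ERF2i, and of those lower in ERF2i, 591 and 79. Tested against GUSi on its own, ERF2i had 4387 higher (13.2%) and 3289 lower (9.89%) contigs and ERF1i 884 (2.66%) and 461 (1.39%), comparisons that share the GUSi libraries. Leaving out 1 library moved these places: contigs with GUSi nearer to ERF1i and nearer to ERF2i numbered 305 and 14 once ERF2i-2 was left out, 506 and 20 without ERF2i-3, 1769 and 619 without ERF1i-7, 554 and 49 without GUSi-9, and 558 and 47 without GUSi-10. Contigs with GUSi between, beyond ERF1i and beyond ERF2i numbered 587, 405 and 23 with ERF2i-2 left out, against 1043, 709 and 35 with ERF2i-3 left out, and those beyond ERF2i were 654 without ERF1i-7.

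**Figure D2:**
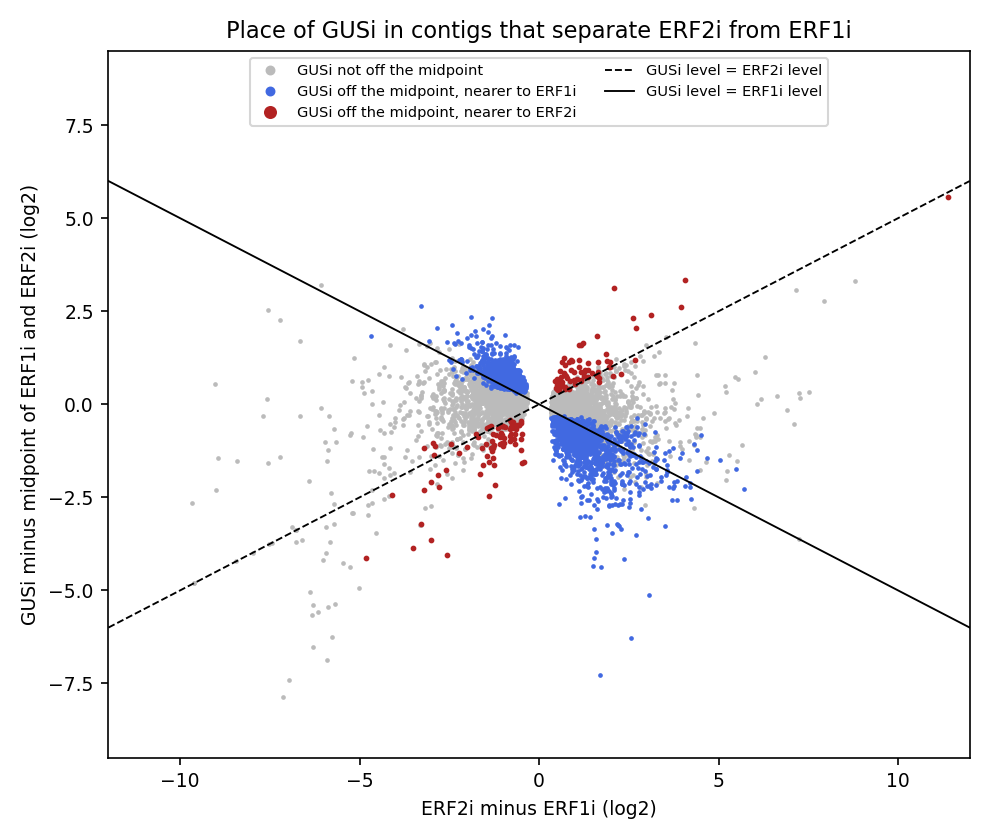
Each point is 1 of the 6526 plant contigs called between ERF2i and ERF1i, with the log2 difference ERF2i minus ERF1i on the horizontal axis and the fitted GUSi level minus the midpoint of both ERF groups (log2) on the vertical axis. On the dashed line GUSi equals ERF2i and on the solid line it equals ERF1i. The 1771 contigs with GUSi off the midpoint towards ERF1i (blue) outnumber the 152 towards ERF2i (red), and 4603 are not off the midpoint (grey).

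Heat shock genes gave most of the largest rises. An Hsp70 (c23170_g1_i1), a chaperone that holds unfolded proteins, had 410.2 and 304 CPM in ERF2i, 2.53 and 2.07 CPM in ERF1i and 59.4 and 5.71 CPM in GUSi, so that the constructs did not overlap and GUSi-9 was far above GUSi-10 (log2 difference 7.27, SE 1.10, adjusted p = 0.00663; 0.0568 without ERF2i-2, where the call was lost). Heat shock protein 83-like (c27906_g1_i1), an Hsp90 that matures signalling proteins, had 2166 and 1754 CPM in ERF2i, 45.8 and 42.4 CPM in ERF1i and 131 and 46.7 CPM in GUSi (log2 difference 5.47, SE 0.50, adjusted p = 0.00133). HSFA2 (c18284_g1_i1), a heat stress transcription factor that *Arabidopsis* makes during stress, had 55.05 and 47.8 CPM in ERF2i, 0.995 and 1.04 CPM in ERF1i and 5.34 and 1.499 CPM in GUSi (log2 difference 5.65, SE 0.50, adjusted p = 0.00121). Both ERF2i lines were above every other line in these 3 contigs, and both GUSi lines were above both ERF1i lines. Small heat shock proteins, which keep unfolding proteins from clumping, rose as well. A class I member (c20110_g1_i1) had 829 and 682 CPM in ERF2i, 20.1 and 20.6 CPM in ERF1i and 242 and 69.3 CPM in GUSi (log2 difference 5.22, SE 0.58, adjusted p = 0.00273). A class II member (c24013_g1_i1) had 124 and 105 CPM in ERF2i, 1.99 and 1.36 CPM in ERF1i and 21.1 and 6.92 CPM in GUSi (log2 difference 6.08, SE 0.56, adjusted p = 0.00137). Others rose by log2 differences of 5.72 (class III, c37551_g1_i1), 5.29 (c19442_g1_i1) and 6.19 (c24013_g2_i1). The Hsp70 contigs c23170_g3_i1 and c23170_g2_i1 had differences of 7.51 and 6.91, a chaperone protein 1-like contig (c45464_g1_i1) 5.51 and a BAG protein (c12444_g1_i1), a partner of Hsp70, 5.05.

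Counts of every list below are to be read against the 10.6% higher and 9.01% lower over all contigs tested. Over the list, 23 of 57 tested heat shock protein contigs were higher and 4 lower (40.4% and 7.02%, median 0.27), and 7 of 16 heat stress factors were higher and 0 lower (median 0.47), with 3 higher without ERF2i-2 and 3 without ERF2i-3. The 4 lower heat shock proteins became 0 without either ERF2i line and 2 without ERF1i-19, GUSi-9 or GUSi-10. Among 103 DnaJ proteins and other chaperones, the partners that load Hsp70, 20 were higher and 5 lower (median 0.20; 8 without ERF2i-2 and 10 without ERF2i-3 for the higher count). With library totals alone 16 of these DnaJ and chaperone contigs were higher and 13 lower (median 0.04). By limma on log2(FPKM + 1) the counts were 16 and 11 (median 0.03), so their excess of higher contigs depends on the scaling. GUSi lay between for 19 and beyond ERF1i for 8 of the 27 called heat shock proteins. The place beyond ERF1i is seen in an Hsp70 of another assembly gene (c47411_g1_i1), with 2914 and 2659 CPM in ERF2i, 906 and 798 CPM in ERF1i and 493 and 504 CPM in GUSi (log2 difference 1.71, SE 0.14, adjusted p = 0.00117). It is also seen in a heat stress factor B-2b-like contig (c32768_g1_i1), with 186 and 153 CPM in ERF2i, 52.6 and 34.8 CPM in ERF1i and 34.05 and 28.6 CPM in GUSi (log2 difference 1.95, SE 0.21, adjusted p = 0.00246), and in a DnaJ protein (c22372_g2_i2, log2 difference 3.83). In a DnaJ B4-like contig (c27119_g1_i1) GUSi was between, at 183 and 158 CPM in ERF2i, 8.73 and 8.29 CPM in ERF1i and 22.5 and 14.1 CPM in GUSi (log2 difference 4.32, SE 0.23, adjusted p = 0.000425). Thiosulfate sulfurtransferase 18-like contigs, enzymes that pass sulfur on, were among the same leading rises: c21296_g1_i2 had 21.3 and 31.1 CPM in ERF2i, 0.153 and 0.957 CPM in ERF1i and 9.74 and 2.57 CPM in GUSi (log2 difference 5.55, SE 0.78, adjusted p = 0.00533). The contig c1909_g1_i1 had 211 counts in ERF2i against 3 in ERF1i, a ratio of 76.2 (95% counting interval 25.7 to 373, which covers counting error only, here and below).

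**Figure D3:**
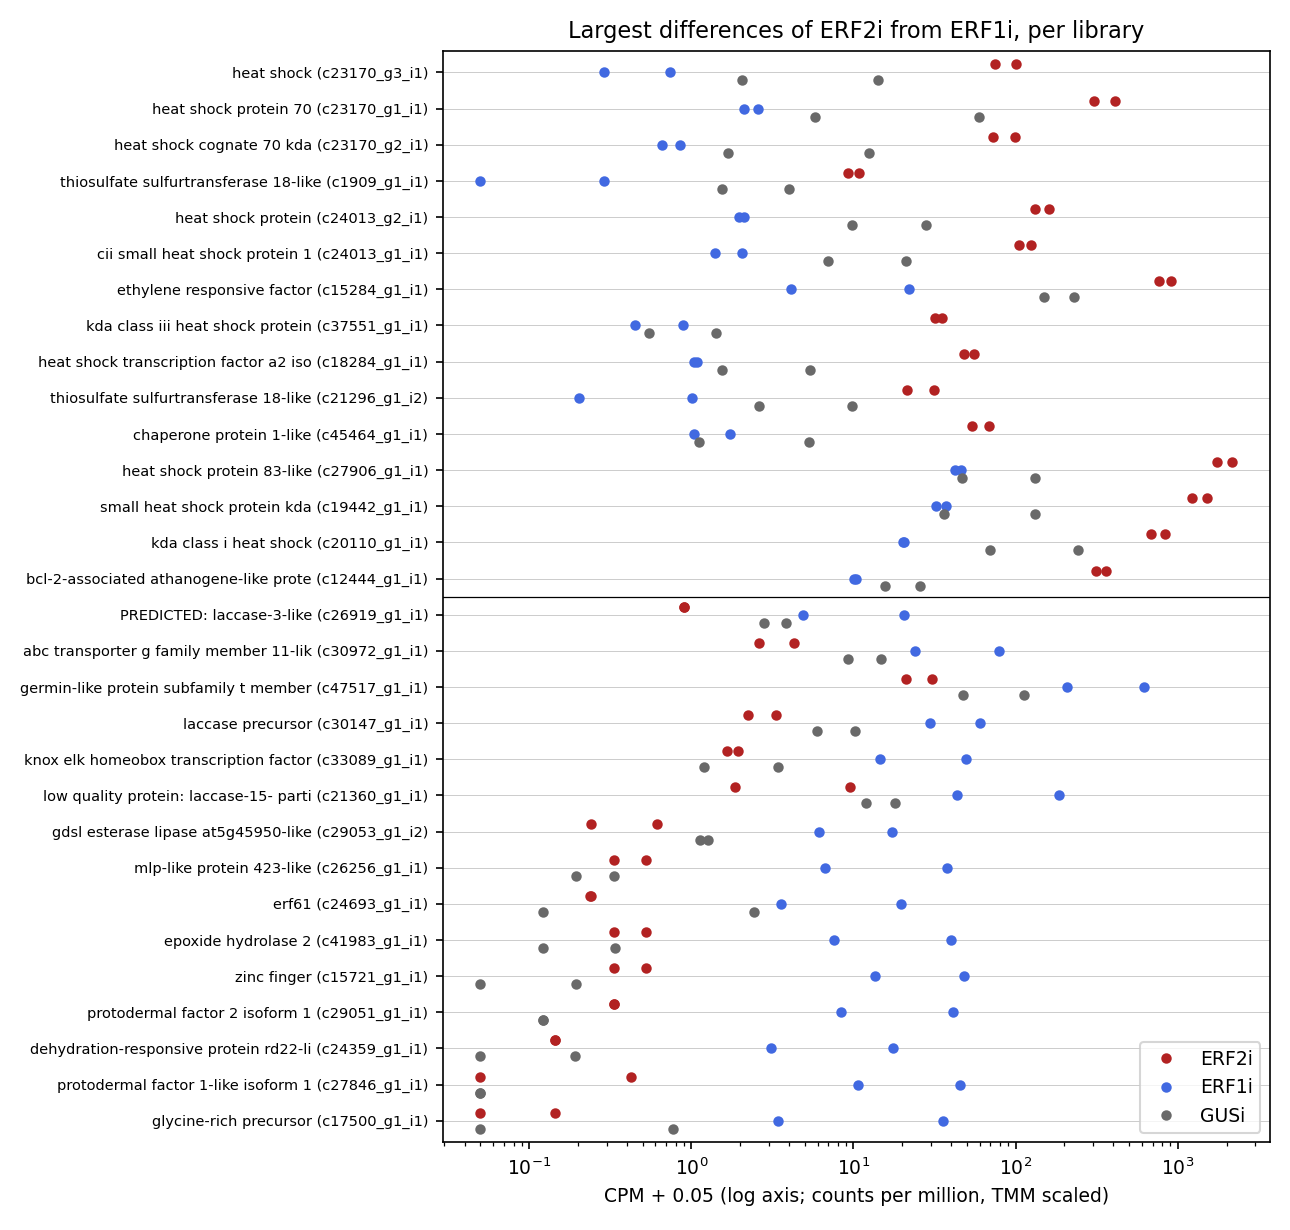
CPM plus 0.05 (logarithmic horizontal axis) in each library for the 15 largest rises (upper block) and 15 largest falls (lower block) of ERF2i from ERF1i, with ERF2i in red, ERF1i in blue and GUSi in grey, 1 point per line. In the upper block GUSi lies mostly between the ERF groups or at the level of ERF1i, and in the lower block it lies mostly at or near the level of ERF2i.

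Genes of the low-oxygen response rose together in ERF2i, with GUSi at the level of ERF1i. The tested contigs of this list belong to 12 assembly genes. Of 22 tested contigs 14 were higher (63.6%, against 10.6% of all contigs) and 0 lower, with a median log2 difference of 2.17, and 12 or 13 were higher with any library left out. Alcohol dehydrogenase 1 (c32933_g1_i2), which regenerates NAD+ in fermentation, had 6905 and 7156 CPM in ERF2i, 629 and 844 CPM in ERF1i and 696 and 662 CPM in GUSi (log2 difference 3.26, SE 0.19, adjusted p = 0.000522). Lactate dehydrogenase (c21966_g1_i1), which does so from pyruvate, had 306 and 422 CPM in ERF2i, 60.8 and 63.3 CPM in ERF1i and 66.3 and 77.7 CPM in GUSi (log2 difference 2.55, SE 0.18, adjusted p = 0.000802). The ERF2i lines were several times above all 4 other lines at both enzymes, and ERF1i and GUSi overlapped at alcohol dehydrogenase 1. Hypoxia-responsive family proteins, named for their induction when oxygen runs low, had 101 and 106 CPM in ERF2i, 2.99 and 8.21 CPM in ERF1i and 5.77 and 5.28 CPM in GUSi (c26838_g1_i1, log2 difference 4.21, SE 0.37, adjusted p = 0.0012). Another had 490.4 and 472 CPM in ERF2i, 74.4 and 93.5 CPM in ERF1i and 63.7 and 67.8 CPM in GUSi (c30534_g1_i2, log2 difference 2.52, SE 0.14, adjusted p = 0.000435). A universal stress protein-like contig (c22905_g1_i2) rose by 3.74 (adjusted p = 0.00178). In the low-oxygen list GUSi lay beyond ERF1i in 9 and between in 5 of the 14 called contigs. Against GUSi, alcohol dehydrogenase 1 differed by 3.37 (adjusted p = 0.000374) in ERF2i and by 0.12 (adjusted p = 0.765) in ERF1i.

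Sucrose synthase and phosphofructokinase contigs rose in ERF2i, a vacuolar invertase fell, and most of the glycolytic list did not pass the test. Sucrose synthase (c26615_g1_i2), which cleaves sucrose without spending ATP, had 1045 and 984 CPM in ERF2i, 111 and 162 CPM in ERF1i and 152 and 102 CPM in GUSi (log2 difference 2.89, SE 0.25, adjusted p = 0.00121). Vacuolar invertase (c30164_g1_i1), which cleaves it with water, had 14.6 and 15.2 CPM in ERF2i, 41.3 and 36.5 CPM in ERF1i and 14.9 and 16.8 CPM in GUSi (log2 difference −1.39, SE 0.12, adjusted p = 0.00123), a fall in ERF2i relative to ERF1i with GUSi at the level of ERF2i. Phosphofructokinases, the enzyme of the committed step, had 202 and 263 CPM in ERF2i, 22.9 and 39.4 CPM in ERF1i and 18.2 and 16.9 CPM in GUSi (c30065_g1_i1, log2 difference 2.90, SE 0.26, adjusted p = 0.00132) and a difference of 2.80 at c30065_g2_i1. Enolase (c33470_g3_i1) had 2551 and 2722 CPM in ERF2i, 925 and 896 CPM in ERF1i and 985 and 976 CPM in GUSi (log2 difference 1.53, SE 0.13, adjusted p = 0.00119). Of 56 glycolysis contigs 12 were higher and 2 lower, with a median of 0.06 that turned to −0.10 with library totals alone and −0.10 on log2(FPKM + 1). The lower count was 0 without ERF2i-2, 1 without ERF2i-3 and 5 without ERF1i-7. Of 43 contigs of sucrose and trehalose metabolism 19 were higher and 5 lower (44.2% and 11.6%, median 0.60). The higher count was 6 without ERF2i-2 and 12 without ERF2i-3, and the lower count 1 without ERF2i-2, 1 without ERF2i-3, 3 without ERF1i-19, 3 without GUSi-9 and 3 without GUSi-10. In this list GUSi was beyond ERF1i in 14, between in 9 and beyond ERF2i in 1 of the 24 called contigs. Alternative oxidase, which lets mitochondria burn electrons without making ATP, moved both ways. One gene (c22709_g1_i1) had 121 and 89.96 CPM in ERF2i, 12.1 and 3.51 CPM in ERF1i and 25.4 and 27.7 CPM in GUSi (log2 difference 3.75, SE 0.46, adjusted p = 0.00348). Another (c23988_g2_i1) had 30.3 and 33 CPM in ERF2i, 44.9 and 52.1 CPM in ERF1i and 48.7 and 47.5 CPM in GUSi (log2 difference −0.62, SE 0.12, adjusted p = 0.0139; adjusted p 0.128 without ERF2i-2, 0.0685 without ERF2i-3). Of 29 contigs of respiration 3 were higher and 4 lower (10.3% and 13.8%, median −0.15; higher 1 without ERF2i-2; lower 0 without ERF2i-2, 0 without ERF2i-3, 2 without ERF1i-7, 1 without ERF1i-19, 1 without GUSi-9 and 1 without GUSi-10).

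The steps from geraniol to strictosidine were lower in ERF2i than in ERF1i at many contigs and higher at none. Of the 28 contigs that the study lists for the secologanin and strictosidine steps 13 were lower (46.4%, against 9.01% of all contigs) and 0 higher, with a median of −0.61. Without ERF2i-2 only 1 was lower and without ERF2i-3 4. The study chose these contigs by sequence similarity to *Catharanthus* genes. It had described their levels in these same libraries, so the count is no independent evidence of a direction. Geraniol 10-hydroxylase (c28312_g1_i1), a P450 that opens the iridoid branch, had 120.4 and 182 CPM in ERF2i, 311 and 246 CPM in ERF1i and 214 and 186 CPM in GUSi (log2 difference −0.88, SE 0.21, adjusted p = 0.0311; adjusted p 0.165 without ERF2i-2, 0.0658 without ERF1i-7). Iridoid oxidase (c39235_g1_i1), the next P450 of the branch, had 173 and 230.3 CPM in ERF2i, 372 and 302 CPM in ERF1i and 279 and 252 CPM in GUSi (log2 difference −0.74, SE 0.17, adjusted p = 0.0281; adjusted p 0.174 without ERF2i-2, 0.0519 without ERF2i-3, 0.0596 without ERF1i-7). The ERF1i lines were above the ERF2i lines at both, and the GUSi lines lay between. The glucosyltransferase of 7-deoxyloganetic acid fell at 4 contigs, with 4.93 and 7.17 CPM in ERF2i, 21.5 and 14.5 CPM in ERF1i and 12.8 and 11.4 CPM in GUSi at c18121_g1_i1 (log2 difference −1.57, SE 0.25, adjusted p = 0.00801; 0.0871 without ERF2i-2). The others had log2 differences of −0.74 (c18473_g1_i1), −0.88 (c22992_g3_i1) and −1.95 (c38432_g1_i1), each of these 3 lost without either ERF2i line and c22992_g3_i1 lost with any 1 of the 6 libraries left out.

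Later steps followed with different firmness. A contig of 7-deoxyloganic acid hydroxylase (c4068_g1_i2), which makes loganic acid, had 2.47 and 2.26 CPM in ERF2i, 19.4 and 15.9 CPM in ERF1i and 3.32 and 7.996 CPM in GUSi (log2 difference −2.90, SE 0.40, adjusted p = 0.00498; adjusted p 0.0695 without ERF2i-2, 0.0586 without ERF2i-3). The contig c4068_g1_i1 of the same assembly gene differed by −2.72 (adjusted p = 0.0161), and its adjusted p was 0.137 without ERF2i-2, 0.11 without ERF2i-3. Loganic acid methyltransferase (c5842_g1_i1) had 119.9 and 146 CPM in ERF2i, 322 and 323 CPM in ERF1i and 208 and 181 CPM in GUSi (log2 difference −1.28, SE 0.14, adjusted p = 0.00228) and kept its call with every library left out. Secologanin synthase, which opens the ring of loganin, had 11.5 and 9.34 CPM in ERF2i, 64.5 and 31.7 CPM in ERF1i and 34.3 and 28.3 CPM in GUSi at a weakly read contig (c27549_g2_i1, log2 difference −2.21, SE 0.34, adjusted p = 0.00687; adjusted p 0.074 without ERF2i-2, 0.0719 without ERF2i-3). Its main contig (c41889_g1_i1) had 634 and 911 CPM in ERF2i, 1065 and 1085 CPM in ERF1i and 1095 and 1015 CPM in GUSi (log2 difference −0.48, SE 0.18, adjusted p = 0.113), which did not pass the threshold. Strictosidine synthase (c47430_g1_i1), which joins secologanin and tryptamine, had 289 and 439 CPM in ERF2i, 728 and 593 CPM in ERF1i and 583 and 590.0 CPM in GUSi (log2 difference −0.86, SE 0.21, adjusted p = 0.0315; adjusted p 0.149 without ERF2i-2, 0.0638 without ERF1i-7, 0.0535 without GUSi-9, 0.0536 without GUSi-10). A strictosidine synthase 1-like contig (c34166_g1_i1) differed by −1.07 (adjusted p = 0.0312), and its adjusted p was 0.195 without ERF2i-2, 0.13 without ERF2i-3, 0.0745 without ERF1i-7. Tryptophan decarboxylase split by contig. The highly read one (c28648_g1_i1) had 525 and 924 CPM in ERF2i, 765 and 1001 CPM in ERF1i and 1017 and 762 CPM in GUSi (log2 difference −0.29, SE 0.29, adjusted p = 0.516), with overlapping groups. The contig c28893_g1_i1 had 4.37 and 5.94 CPM in ERF2i, 24.04 and 11.6 CPM in ERF1i and 10.97 and 9.28 CPM in GUSi (log2 difference −1.79, SE 0.36, adjusted p = 0.0176; adjusted p 0.152 without ERF2i-2, 0.083 without ERF2i-3). A WD repeat contig that the study lists under the same enzyme (c32159_g1_i1) differed by −0.02 (adjusted p = 0.926). Among the 13 called contigs GUSi was between in 11 and beyond ERF1i in 2.

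Upstream, 2 of 12 MEP contigs were lower and 0 higher (median −0.08), with 0 lower without ERF2i-2 and 4 without ERF1i-7. The reductoisomerase DXR (c33486_g7_i1), the committed step, had 79.7 and 84.6 CPM in ERF2i, 167 and 192 CPM in ERF1i and 188 and 150.5 CPM in GUSi (log2 difference −1.13, SE 0.14, adjusted p = 0.00364; 0.0577 without ERF2i-2), with GUSi overlapping ERF1i. The kinase CMK (c28782_g1_i1) had 51.6 and 58.6 CPM in ERF2i, 86.05 and 91.1 CPM in ERF1i and 74.7 and 68.8 CPM in GUSi (log2 difference −0.68, SE 0.11, adjusted p = 0.00812; 0.0944 without ERF2i-2). The entry enzyme DXS (c29996_g1_i1), higher in value in ERF2i, had 538 and 556 CPM in ERF2i, 356 and 370.4 CPM in ERF1i and 612 and 377 CPM in GUSi (log2 difference 0.59, SE 0.22, adjusted p = 0.099). Of 60 contigs for shikimate and tryptophan, which supply the indole part, 4 were higher and 14 lower (median −0.29), the lower count being 1 without ERF2i-2, 4 without ERF2i-3, 9 without ERF1i-7, 8 without ERF1i-19, 6 without GUSi-9 and 6 without GUSi-10.

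**Figure D4:**
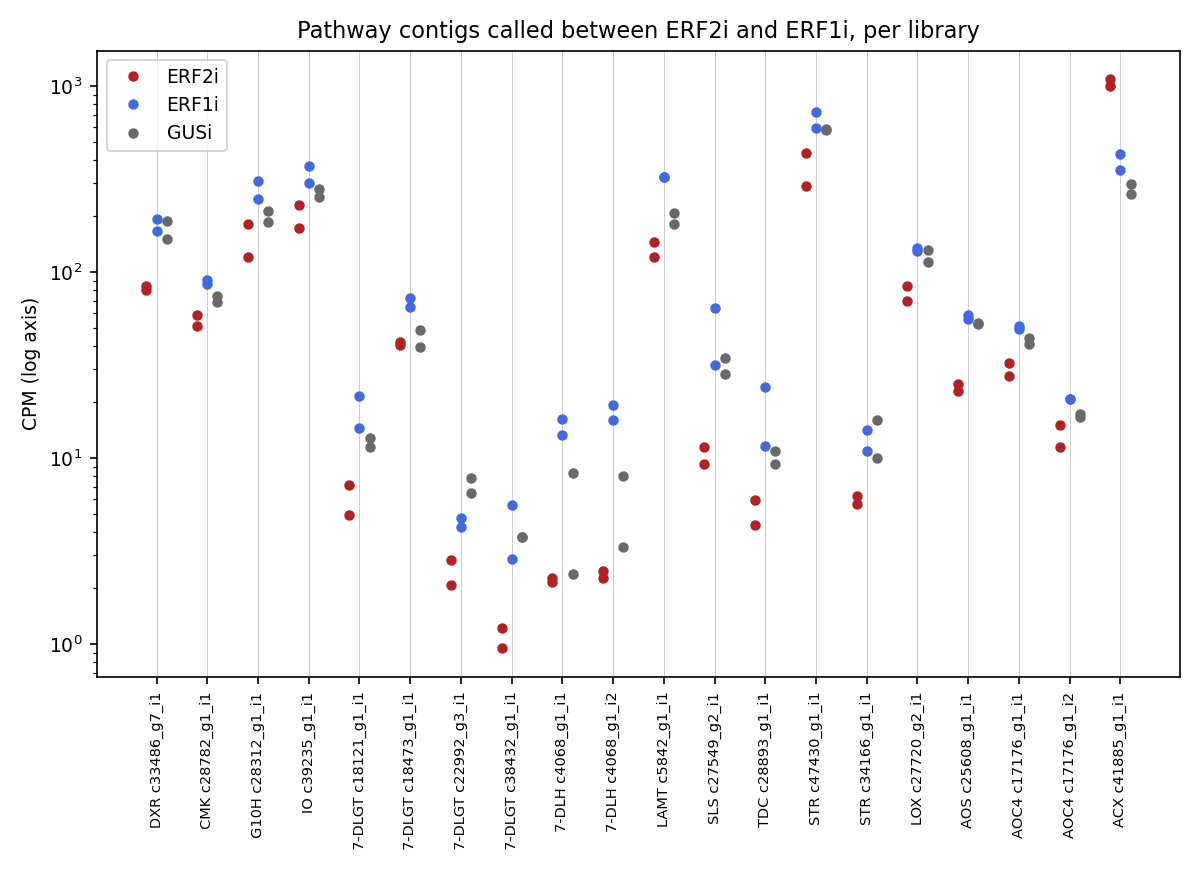
CPM (logarithmic vertical axis) in each library of the MEP, secologanin, strictosidine and jasmonate contigs called between ERF2i and ERF1i, labelled by enzyme and contig, with ERF2i in red, ERF1i in blue and GUSi in grey. The ERF2i lines lie below the ERF1i lines in all of them except acyl-CoA oxidase (ACX) at the right, and the GUSi lines lie between or at ERF1i in most.

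Jasmonate, the hormone that drives group IX ERFs in *Catharanthus*, had early steps that fell and a late step that rose. Allene oxide synthase (c25608_g1_i1), an early step, had 22.97 and 25.1 CPM in ERF2i, 56.1 and 59.01 CPM in ERF1i and 52.3 and 53.2 CPM in GUSi (log2 difference −1.26, SE 0.10, adjusted p = 0.00117). Lipoxygenase (c27720_g2_i1), which supplies its substrate, had 69.8 and 84.3 CPM in ERF2i, 135 and 130.2 CPM in ERF1i and 132 and 113 CPM in GUSi (log2 difference −0.78, SE 0.13, adjusted p = 0.00967; 0.0993 without ERF2i-2). Allene oxide cyclase fell, with log2 differences of −0.75 (c17176_g1_i1) and −0.65 (c17176_g1_i2), 2 contigs of 1 assembly gene, both lost without ERF2i-2 and c17176_g1_i2 also without ERF1i-19. In all these contigs the ERF2i lines were the lowest and GUSi lay nearer in value to ERF1i. Acyl-CoA oxidase (c41885_g1_i1), which shortens the jasmonate precursor in peroxisomes and also degrades fatty acids, had 1002 and 1088 CPM in ERF2i, 353 and 429 CPM in ERF1i and 298 and 262 CPM in GUSi (log2 difference 1.42, SE 0.15, adjusted p = 0.00208). Over 16 contigs of jasmonate biosynthesis 1 was higher and 4 lower (median −0.12), with 1 lower without ERF2i-2 and 3 higher without ERF1i-7. Of 16 contigs of MYC2 and JAZ, the activator and repressors of jasmonate signalling, 0 were higher and 2 lower (median −0.14), and neither call held without an ERF2i line. The lower MYC2-like contig (c47845_g1_i1) was weakly read, with 0.475 and 0.471 CPM in ERF2i, 2.603 and 3.91 CPM in ERF1i and 1.88 and 1.78 CPM in GUSi (log2 difference −2.75, SE 0.38, adjusted p = 0.00506; adjusted p 0.0631 without ERF2i-2, 0.0514 without ERF2i-3). The main MYC2b contig (c33349_g3_i1) had 179 and 167 CPM in ERF2i, 218 and 208 CPM in ERF1i and 236 and 261 CPM in GUSi (log2 difference −0.30, SE 0.11, adjusted p = 0.1).

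Lignin enzymes and peroxidases were lower in ERF2i over much of their lists. Of 58 class III peroxidases, which couple lignin units in the cell wall, 25 were lower and 2 higher (43.1% and 3.45%, median −1.13), and of 101 phenylpropanoid and lignin contigs 37 were lower and 5 higher (36.6% and 4.95%, median −0.53). The lower counts were 7 without ERF2i-2 and 8 without ERF2i-3 for peroxidases and 5 without ERF2i-2 and 11 without ERF2i-3 for lignin. Peroxidase 53 (c248_g1_i1) had 22.02 and 31.1 CPM in ERF2i, 142 and 146 CPM in ERF1i and 84.99 and 62.4 CPM in GUSi (log2 difference −2.44, SE 0.21, adjusted p = 0.00119). A peroxidase 4-like contig (c24663_g1_i2) had 1.52 and 2.55 CPM in ERF2i, 15.7 and 15.9 CPM in ERF1i and 3.03 and 2.499 CPM in GUSi (log2 difference −2.95, SE 0.24, adjusted p = 0.00118). GUSi was between in the first of these and at the level of ERF2i in the other, which thus stood out in ERF1i. Laccases, copper oxidases of the same step, had wider gaps. One (c30147_g1_i1) had 2.18 and 3.3 CPM in ERF2i, 29.5 and 59.97 CPM in ERF1i and 5.92 and 10.1 CPM in GUSi (log2 difference −4.02, SE 0.46, adjusted p = 0.00285). Laccase-15-like (c21360_g1_i1) had 1.803 and 9.52 CPM in ERF2i, 43.5 and 185 CPM in ERF1i and 11.9 and 17.9 CPM in GUSi (log2 difference −4.33, SE 0.86, adjusted p = 0.0172; adjusted p 0.13 without ERF2i-2, 0.057 without ERF2i-3). Laccase-3-like (c26919_g1_i1) differed by −3.87 (adjusted p = 0.0179), a call also lost without either ERF2i line. ERF1i-19 was the highest library at each of these 3. Phenylalanine ammonia-lyase (c13133_g1_i1), the entry enzyme, had 20.6 and 28.2 CPM in ERF2i, 58.95 and 62.4 CPM in ERF1i and 54.04 and 50.05 CPM in GUSi (log2 difference −1.31, SE 0.16, adjusted p = 0.0031), with GUSi close to ERF1i. Cinnamyl alcohol dehydrogenase (c22710_g1_i1), the last step to the lignin alcohols, went against this direction, with 778 and 773 CPM in ERF2i, 258 and 309 CPM in ERF1i and 204 and 182 CPM in GUSi (log2 difference 1.45, SE 0.14, adjusted p = 0.00147). So did a P450 of the 98A3 family (c24241_g1_i1), which hydroxylates the lignin ring, with 166 and 181 CPM in ERF2i, 59.3 and 62.5 CPM in ERF1i and 51.1 and 57.5 CPM in GUSi (log2 difference 1.51, SE 0.11, adjusted p = 0.000872).

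Some families of specialized metabolism, P450s among them, had more contigs lower than higher, and others were divided or had more higher. Of 187 cytochrome P450 contigs 51 were lower and 14 higher (27.3% and 7.49%, median −0.56), the lower count being 5 without ERF2i-2 and 13 without ERF2i-3. A P450-like contig (c38646_g1_i1) had 0.57 and 0.471 CPM in ERF2i, 9.11 and 8.93 CPM in ERF1i and 0.289 and 0.5 CPM in GUSi (log2 difference −4.09, SE 0.30, adjusted p = 0.000872). A P450 94A1-like contig (c42193_g1_i1) had 1.14 and 1.23 CPM in ERF2i, 9.88 and 13.6 CPM in ERF1i and 0.361 and 0.428 CPM in GUSi (log2 difference −3.30, SE 0.27, adjusted p = 0.00116). Both were high in ERF1i alone and GUSi lay beyond ERF2i. Of 68 strictosidine synthase-like proteins and glucosidases 21 were lower and 3 higher (median −0.79; 3 without ERF2i-2 and 12 without ERF2i-3 for the lower count). Against these, β-glucosidase 11-like (c31565_g1_i3) was among the strong rises, with 709.8 and 752 CPM in ERF2i, 49.8 and 60.1 CPM in ERF1i and 111 and 64.97 CPM in GUSi (log2 difference 3.73, SE 0.27, adjusted p = 0.000872). Of 101 2-oxoglutarate-dependent dioxygenases 24 were lower and 9 higher (median −0.35), and of 71 flavonoid contigs 16 and 7 (median −0.20). The lower counts were 4 without ERF2i-2 and 7 without ERF2i-3 for dioxygenases and 4 without ERF2i-2 and 6 without ERF2i-3 for flavonoids. UDP-glycosyltransferases, which add sugars to small molecules, were split, with 34 of 121 higher (28.1%) and 28 lower (23.1%). The counts were 13 without ERF2i-2 and 18 without ERF2i-3 for the higher and 5 without ERF2i-2 and 12 without ERF2i-3 for the lower count. A UDP-glucose glucosyltransferase (c33537_g1_i2) had 370.0 and 388 CPM in ERF2i, 61.9 and 65.1 CPM in ERF1i and 70.1 and 50.2 CPM in GUSi (log2 difference 2.58, SE 0.17, adjusted p = 0.000643). Hydroxyphenylpyruvate dioxygenase (c26633_g1_i1), which feeds tocopherol and plastoquinone, had 693 and 490.1 CPM in ERF2i, 48.2 and 52.5 CPM in ERF1i and 65.7 and 31.4 CPM in GUSi (log2 difference 3.55, SE 0.36, adjusted p = 0.00186). Of 44 glutathione S-transferases 3 were higher and 1 lower (median −0.17). The contig c33421_g1_i1 had 750.2 and 676 CPM in ERF2i, 226 and 225 CPM in ERF1i and 137 and 128 CPM in GUSi (log2 difference 1.66, SE 0.12, adjusted p = 0.000802). Mevalonate and sterol contigs had 24 higher and 12 lower of 95 (25.3% and 12.6%, median 0.17). Most of the higher calls were lost without either ERF2i line. With library totals alone 18 were higher and 18 lower, and by limma on log2(FPKM + 1) 16 and 11. The median was 0.01 in both, so this excess depends on the scaling.

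The largest falls included some genes of the shoot epidermis and of young leaves, most of them read almost only in ERF1i. Other members of these families differed: YABBY 5-like (c11793_g2_i1) had 23 and 7 counts in ERF2i, 23 and 24 in ERF1i and 19 and 12 in GUSi. In the same order knotted-1-like 7 (c33075_g4_i1) had 502 and 502, 483 and 293, and 651 and 728 counts. Knotted-1-like 3 (c32216_g3_i1) had 153 and 155, 338 and 550, and 322 and 229 counts. Protodermal factor 1 (c27846_g1_i1), a wall protein of the outer cell layer, had 0 and 4 counts in ERF2i, 138 and 567 counts in ERF1i and 0 and 0 counts in GUSi, and the homeodomain protein protodermal factor 2 (c29051_g1_i1) of the same layer had 3 and 3 counts in ERF2i, 108 and 517 counts in ERF1i and 1 and 1 counts in GUSi. ERF1i-19 held several times the counts of ERF1i-7 at both, and the GUSi lines were at or next to 0 (log2 difference −7.13, SE 1.18, adjusted p = 0.013 for factor 1 and log2 difference −6.39, SE 1.05, adjusted p = 0.00858 for factor 2). YABBY factors set the lower face of leaves. YABBY 4-like (c42908_g1_i1) had 2 counts in ERF2i against 208 in ERF1i, a ratio of ERF1i to ERF2i of 96.0 (95% counting interval 26.2 to 798), and YABBY 1-like (c494_g1_i1) 2 against 144, a ratio of 66.4 (18.1 to 554). A glycine-rich wall protein (c17500_g1_i1) had 1 count in ERF2i against 493 in ERF1i (ratio 455, 81.3 to 18007), and a dehydration-responsive RD22-like contig (c24359_g1_i1) 2 against 258 (ratio 119, 32.6 to 988). A KNOX/ELK homeobox factor (c33089_g1_i1), of a class that keeps shoot meristems growing, had 1.61 and 1.89 CPM in ERF2i, 14.6 and 49.3 CPM in ERF1i and 3.39 and 1.14 CPM in GUSi (log2 difference −4.18, SE 0.72, adjusted p = 0.0106). Each of these calls was lost with either ERF2i line left out, a fit that takes its spread from the ERF1i and GUSi pairs alone. Without ERF2i-2 and without ERF2i-3 the log2 difference was −6.18 and −11.48 for protodermal factor 1. It was −6.41 and −6.40 for factor 2. Leaving out ERF2i-2, and then ERF2i-3 instead, gave an adjusted p of 0.127 and 0.0853 for protodermal factor 1 and 0.104 and 0.0798 for factor 2. It was 0.178 and 0.121 for YABBY 4-like, 0.186 and 0.121 for YABBY 1-like, 0.182 and 0.158 for the glycine-rich protein, 0.142 and 0.112 for the RD22-like contig and 0.12 and 0.0873 for the KNOX factor.

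The other leading falls shared this pattern of a high ERF1i-19 and an ERF1i-7 in the middle. They were a zinc finger protein (c15721_g1_i1, −6.31), epoxide hydrolase 2 (c41983_g1_i1, −5.93), an MLP 423-like protein (c26256_g1_i1, −5.83), an ERF named erf61 (c24693_g1_i1, −5.86), a GDSL esterase/lipase (c29053_g1_i2, −4.91), a germin-like protein (c47517_g1_i1, −4.00) and an ABC transporter G11-like contig (c30972_g1_i1, −3.91), of a family that exports cuticle lipids. The germin-like protein had 21.2 and 30.5 CPM in ERF2i, 207 and 621 CPM in ERF1i and 112 and 47.4 CPM in GUSi. All 7 calls were lost without ERF2i-2, with adjusted p of 0.0756, 0.124, 0.131, 0.219, 0.0784, 0.105 and 0.107 in this order, and all but the GDSL esterase without ERF2i-3. The erf61 call was lost without ERF1i-19 too (0.0765). The list of epidermis and leaf polarity had 4 of 10 contigs lower and 0 higher (median −0.38; 0 lower without either ERF2i line, 1 lower by DESeq2 and 1 higher without ERF1i-7), and GUSi lay beyond ERF2i in all 4.

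Some genes of photosynthesis were lower in ERF2i than in ERF1i, beside the shoot and green markers whose sums were 391 and 446 CPM in ERF2i, 558 and 776 CPM in ERF1i and 449 and 409.7 CPM in GUSi. Of 52 contigs 15 were lower and 0 higher (28.8%, median −0.88). The lower count was 0 without ERF2i-2, 6 without ERF2i-3, 6 without ERF1i-19, 8 without GUSi-9 and 8 without GUSi-10. A photosystem I subunit (c18538_g1_i1) had 4.08 and 7.92 CPM in ERF2i, 15.6 and 16.4 CPM in ERF1i and 6.21 and 5.71 CPM in GUSi (log2 difference −1.41, SE 0.27, adjusted p = 0.0152; 0.056 without ERF2i-2). A small protein of photosystem II (c31256_g1_i1) had 7.59 and 13.9 CPM in ERF2i, 23.3 and 29.9 CPM in ERF1i and 14.8 and 11.4 CPM in GUSi (log2 difference −1.31, SE 0.28, adjusted p = 0.0218; 0.121 without ERF2i-2). ERF2i and GUSi overlapped at the photosystem I subunit, where both ERF1i lines stood above them. The median over the list was 0.06 for ERF2i against GUSi and 1.0 for ERF1i against GUSi. Against GUSi 6 contigs of the list were higher and 1 lower in ERF2i (13.2% and 9.89% over all contigs tested). In ERF1i 10 were higher and 0 lower (2.66% and 1.39% over all), so some members were above GUSi in ERF2i too. Cuticle, suberin and Casparian strip contigs had 23 lower and 9 higher of 111 (median −0.25; 0 without ERF2i-2 and 5 without ERF2i-3 for the lower count). LEA and RD22-like contigs had 7 lower and 0 higher of 23 (median −0.22; 1 without ERF2i-2 and 2 without ERF2i-3), and pathogenesis-related proteins and chitinases 31 lower and 9 higher of 134 (median −0.34; 0 without ERF2i-2 and 6 without ERF2i-3). The part of shoot-like tissue in these differences was not tested.

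Transcription factor families moved unevenly. WRKY factors, regulators of defence, had 16 higher and 3 lower of 55 (29.1% and 5.45%, median 0.25), and NAC factors, regulators of stress and wall formation, 17 and 2 of 48 (35.4% and 4.17%, median 0.49). The higher counts were 2 without ERF2i-2, 4 without ERF2i-3 and 9 without ERF1i-19 for WRKY and 4 without ERF2i-2, 7 without ERF2i-3 and 10 without ERF1i-19 for NAC. WRKY had 8 higher and 5 lower with library totals alone, 7 and 4 by limma, and 8 and 1 with no filter on low counts. A WRKY 7-like contig (c28335_g1_i1) had 381 and 329 CPM in ERF2i, 162 and 161 CPM in ERF1i and 188 and 224 CPM in GUSi (log2 difference 1.13, SE 0.13, adjusted p = 0.00304). The AP2/ERF family itself was divided, with 13 higher and 16 lower of 91 and a median of 0.01 that turned to −0.15 with library totals alone and −0.06 on log2(FPKM + 1) (higher count 4 without ERF2i-2, 5 without ERF2i-3 and 25 without ERF1i-7; lower count 1 without ERF2i-2 and 2 without ERF2i-3). CRF4 (c19581_g1_i1), a cytokinin response factor that in *Arabidopsis* acts in cold and nitrogen responses, had 73.8 and 66.5 CPM in ERF2i, 5.82 and 1.99 CPM in ERF1i and 14.4 and 16.8 CPM in GUSi (log2 difference 4.16, SE 0.37, adjusted p = 0.00124). DREB2A (c31766_g1_i1), which in *Arabidopsis* switches on HSFA3 under heat and drought, had 20.6 and 19.1 CPM in ERF2i, 2.76 and 3.67 CPM in ERF1i and 4.26 and 2.93 CPM in GUSi (log2 difference 2.62, SE 0.22, adjusted p = 0.00119). An AP2-domain protein (c14735_g1_i1) went down, with 31.9 and 34.6 CPM in ERF2i, 84.4 and 91.2 CPM in ERF1i and 116 and 112 CPM in GUSi (log2 difference −1.40, SE 0.10, adjusted p = 0.000872) and GUSi beyond ERF1i.

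Of 84 homeobox contigs 19 were higher and 16 lower, with a median of 0.11 that turned to −0.05 with library totals alone and −0.04 on log2(FPKM + 1). ATHB-15-like (c31590_g2_i1), an HD-ZIP III factor of vascular patterning, had 224 and 233 CPM in ERF2i, 99.2 and 91.95 CPM in ERF1i and 122 and 137 CPM in GUSi (log2 difference 1.26, SE 0.11, adjusted p = 0.00121). ATHB-6-like (c21347_g1_i1), an HD-ZIP I factor of abscisic acid signalling, had 95.2 and 118 CPM in ERF2i, 255 and 268 CPM in ERF1i and 502 and 442 CPM in GUSi (log2 difference −1.29, SE 0.14, adjusted p = 0.00269). The lines of each construct lay close together at both, and GUSi was between at ATHB-15-like and highest at ATHB-6-like. For bHLH factors 17 were lower and 8 higher of 114 (median −0.15). For MYB factors 18 were lower and 10 higher of 105, with a median of 0.09 that turned to −0.08 with library totals alone and −0.06 on log2(FPKM + 1). For GRAS factors 7 were lower and 7 higher of 59 (median −0.17). The lower counts were 1 without ERF2i-2 and 4 without ERF2i-3 for bHLH and 2 without ERF2i-2, 2 without ERF2i-3, 11 without GUSi-9 and 11 without GUSi-10 for MYB. With library totals alone 34 bHLH contigs were lower, and with no filter 10. They were 0 without ERF2i-2 and 0 without ERF2i-3 for GRAS and 1 without ERF2i-2, 1 without ERF2i-3 and 10 without ERF1i-19 for homeobox. A VQ motif protein (c20782_g2_i1), a class that binds WRKY factors, had 31.5 and 38.3 CPM in ERF2i, 1.68 and 1.99 CPM in ERF1i and 1.15 and 1.57 CPM in GUSi (log2 difference 4.24, SE 0.20, adjusted p = 0.000425), with GUSi beyond ERF1i. TFL1-like (c45764_g1_i1), a repressor of flowering, had 28.8 and 9.43 CPM in ERF2i, 2.99 and 3.27 CPM in ERF1i and 19.8 and 57.8 CPM in GUSi (log2 difference 2.61, SE 0.72, adjusted p = 0.0455; adjusted p 0.266 without ERF2i-2, 0.0552 without ERF2i-3, 0.102 without ERF1i-7, 0.106 without ERF1i-19). GUSi reached beyond ERF2i there, and it was 1 of 2 flowering regulators tested.

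Auxin carriers moved in both directions. A PIN-like auxin efflux carrier (c32378_g1_i3), which moves auxin out of cells or into the endoplasmic reticulum, had 68.2 and 66.7 CPM in ERF2i, 3.598 and 2.31 CPM in ERF1i and 8.297 and 7.57 CPM in GUSi (log2 difference 4.50, SE 0.19, adjusted p = 0.000425). A PIN3-like carrier (c25333_g2_i1) moved the other way, with 12.9 and 14.99 CPM in ERF2i, 36.4 and 37.5 CPM in ERF1i and 46.9 and 48.7 CPM in GUSi (log2 difference −1.40, SE 0.12, adjusted p = 0.00119). GUSi was between at the carrier that rose and above both ERF groups at the one that fell. Auxin contigs as a list had 27 higher and 12 lower of 120, with a median of 0.03 that turned to −0.13 with library totals alone and −0.11 on log2(FPKM + 1). The higher count was 7 without ERF2i-2 and 12 without ERF2i-3. Ethylene contigs, from synthesis to signalling, had 17 lower and 10 higher of 56 (30.4% and 17.9%, median −0.27; 4 without ERF2i-2 and 8 without ERF2i-3 for the lower count). Among them an ACC oxidase (c44729_g1_i1), the last step to ethylene, had 17.8 and 20.9 CPM in ERF2i, 42.6 and 54.95 CPM in ERF1i and 32.3 and 32.98 CPM in GUSi (log2 difference −1.33, SE 0.15, adjusted p = 0.00293). Abscisic acid contigs had 15 higher and 6 lower of 84 (median 0.07, and −0.09 with library totals alone and −0.06 on log2(FPKM + 1); 4 without ERF2i-2, 5 without ERF2i-3 and 9 without ERF1i-19 for the higher count). A PYL4-like receptor of abscisic acid (c33488_g3_i2) had 33.7 and 29.9 CPM in ERF2i, 10.4 and 8.93 CPM in ERF1i and 18.5 and 20.7 CPM in GUSi (log2 difference 1.71, SE 0.14, adjusted p = 0.00115). Gibberellin contigs had 3 higher and 3 lower of 37 (8.11% and 8.11%, median −0.37), and cytokinin contigs 3 and 4 of 56 (5.36% and 7.14%, median 0.04, and −0.12 with library totals alone and −0.10 on log2(FPKM + 1)), none of these shares above those over all contigs. With 1 library left out gibberellin ran from 1 to 6 higher and 0 to 8 lower, and cytokinin from 0 to 4 and 0 to 7, the lowest counts coming with an ERF2i line left out.

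A nitrate reductase and a glutamate synthase rose in ERF2i, while the list of nitrate and ammonium was divided. Nitrate reductase (c12636_g1_i1) had 2868 and 2631 CPM in ERF2i, 525 and 811 CPM in ERF1i and 611 and 472 CPM in GUSi (log2 difference 2.04, SE 0.24, adjusted p = 0.00305). Glutamate synthase 1 (c30720_g1_i1), which brings ammonium into amino acids, had 1798 and 1734 CPM in ERF2i, 367 and 487 CPM in ERF1i and 211 and 177 CPM in GUSi (log2 difference 2.05, SE 0.18, adjusted p = 0.0012). Both ERF2i lines were several times above every other line at both enzymes, and GUSi lay at or beyond ERF1i. The list of nitrate and ammonium had 6 higher and 8 lower of 44 (median −0.40; higher 3 without ERF2i-3, lower 2 without ERF2i-2 and 2 without ERF2i-3), so members fell as well as rose. Phosphate starvation contigs had 5 higher and 6 lower of 51 (9.8% and 11.8%, near the shares over all contigs; median −0.03; lower 0 without ERF2i-2, 1 without ERF2i-3, 3 without ERF1i-19, 3 without GUSi-9 and 3 without GUSi-10). An SPX domain protein (c29932_g1_i1), of a class that senses phosphate, had 195 and 228 CPM in ERF2i, 47.5 and 45.9 CPM in ERF1i and 52.8 and 61.97 CPM in GUSi (log2 difference 2.18, SE 0.13, adjusted p = 0.000538). Of sugar transporters and aquaporins 9 were lower and 1 higher of 54 (median −0.22; 0 without ERF2i-2 and 3 without ERF2i-3 for the lower count). ABC and MATE transporters had 28 higher and 31 lower of 282 (9.93% and 11%, near the shares over all contigs; median −0.20; lower 2 without ERF2i-2, 4 without ERF2i-3 and 49 without ERF1i-7). A pleiotropic drug resistance 1-like exporter (c30489_g3_i1) had 638 and 594 CPM in ERF2i, 173 and 132 CPM in ERF1i and 156 and 181 CPM in GUSi (log2 difference 2.01, SE 0.16, adjusted p = 0.00116).

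The RNA silencing machinery, on which all 3 constructs depend, differed at a few genes. Argonaute 2-like (c18604_g1_i1), which binds small RNAs in antiviral defence, had 619 and 532 CPM in ERF2i, 107 and 133 CPM in ERF1i and 122 and 148 CPM in GUSi (log2 difference 2.27, SE 0.17, adjusted p = 0.000872). Dicer-like 4 (c30798_g1_i1), which cuts hairpins and long double strands into small RNAs, had 96.8 and 93.2 CPM in ERF2i, 42.5 and 42.8 CPM in ERF1i and 48.8 and 50.8 CPM in GUSi (log2 difference 1.15, SE 0.09, adjusted p = 0.00116). ERF1i and GUSi lines were close at both. Of 50 contigs 7 were higher and 1 lower, with a median of 0.13 that turned to −0.03 with library totals alone and −0.01 on log2(FPKM + 1) (higher count 3 without ERF2i-2 and 11 without ERF1i-19). Calcium sensors had 31 higher and 9 lower of 170 (18.2% and 5.29%, median 0.09, and −0.08 with library totals alone and −0.05 on log2(FPKM + 1); 4 without ERF2i-2 and 8 without ERF2i-3 for the higher count). A calmodulin-binding protein (c28629_g1_i1) had 332 and 285 CPM in ERF2i, 113 and 106 CPM in ERF1i and 126 and 118 CPM in GUSi (log2 difference 1.5, SE 0.12, adjusted p = 0.00115). Cytosolic ribosomal proteins were lower at 42 and higher at 11 of 205 (20.5% and 5.37%, median −0.25), and proteasome subunits at 11 and 1 of 57 (median −0.14). The lower counts were 0 without ERF2i-2, 1 without ERF2i-3, 23 without ERF1i-7, 20 without ERF1i-19, 17 without GUSi-9 and 18 without GUSi-10 for ribosomal proteins. They were 0 without ERF2i-2, 0 without ERF2i-3, 7 without ERF1i-7, 4 without ERF1i-19, 5 without GUSi-9 and 5 without GUSi-10 for the proteasome. With library totals alone the lower counts were 108 and 25, and by limma on log2(FPKM + 1) 90 and 22, so both depend on the scaling. The differences of proteasome subunits were small, as in α6 (c17852_g1_i1) with 83.6 and 85.3 CPM in ERF2i, 130.0 and 139.5 CPM in ERF1i and 118 and 133 CPM in GUSi (log2 difference −0.67, SE 0.11, adjusted p = 0.00793; 0.0865 without ERF2i-2, 0.062 without ERF2i-3). A ribosomal protein L10 contig (c36833_g1_i1) went against its list, with 1594 and 1400 CPM in ERF2i, 491 and 512 CPM in ERF1i and 503 and 455 CPM in GUSi (log2 difference 1.58, SE 0.13, adjusted p = 0.00119).

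Cell cycle and histone contigs had 11 higher and 8 lower of 87 (12.6% and 9.2%, near the shares over all contigs), with a median of 0.08 that turned to −0.08 with library totals alone and −0.08 on log2(FPKM + 1) (higher 4 without ERF2i-2 and 7 without ERF2i-3, lower 1 without ERF2i-2 and 2 without ERF2i-3). Histone H1 (c18695_g1_i1), the linker histone, had 198 and 198 CPM in ERF2i, 42.6 and 50.3 CPM in ERF1i and 87.6 and 72.4 CPM in GUSi (log2 difference 2.09, SE 0.14, adjusted p = 0.000646). Expansins and xyloglucan enzymes, which loosen the wall, had 21 lower and 14 higher of 90 (median −0.32), and pectin enzymes 18 lower and 15 higher of 91 (median −0.11), with lower counts of 1 without ERF2i-2 and 5 without ERF2i-3 for expansins and 1 without ERF2i-2 and 5 without ERF2i-3 for pectin. A contig described as transmembrane epididymal protein 1-like (c29438_g3_i1), whose role in plants is not given by that name, was among the strong rises with GUSi beyond ERF1i, at 486 and 455 CPM in ERF2i, 37.4 and 39.3 CPM in ERF1i and 35.5 and 21.6 CPM in GUSi (log2 difference 3.62, SE 0.23, adjusted p = 0.000589).

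**Figure D5:**
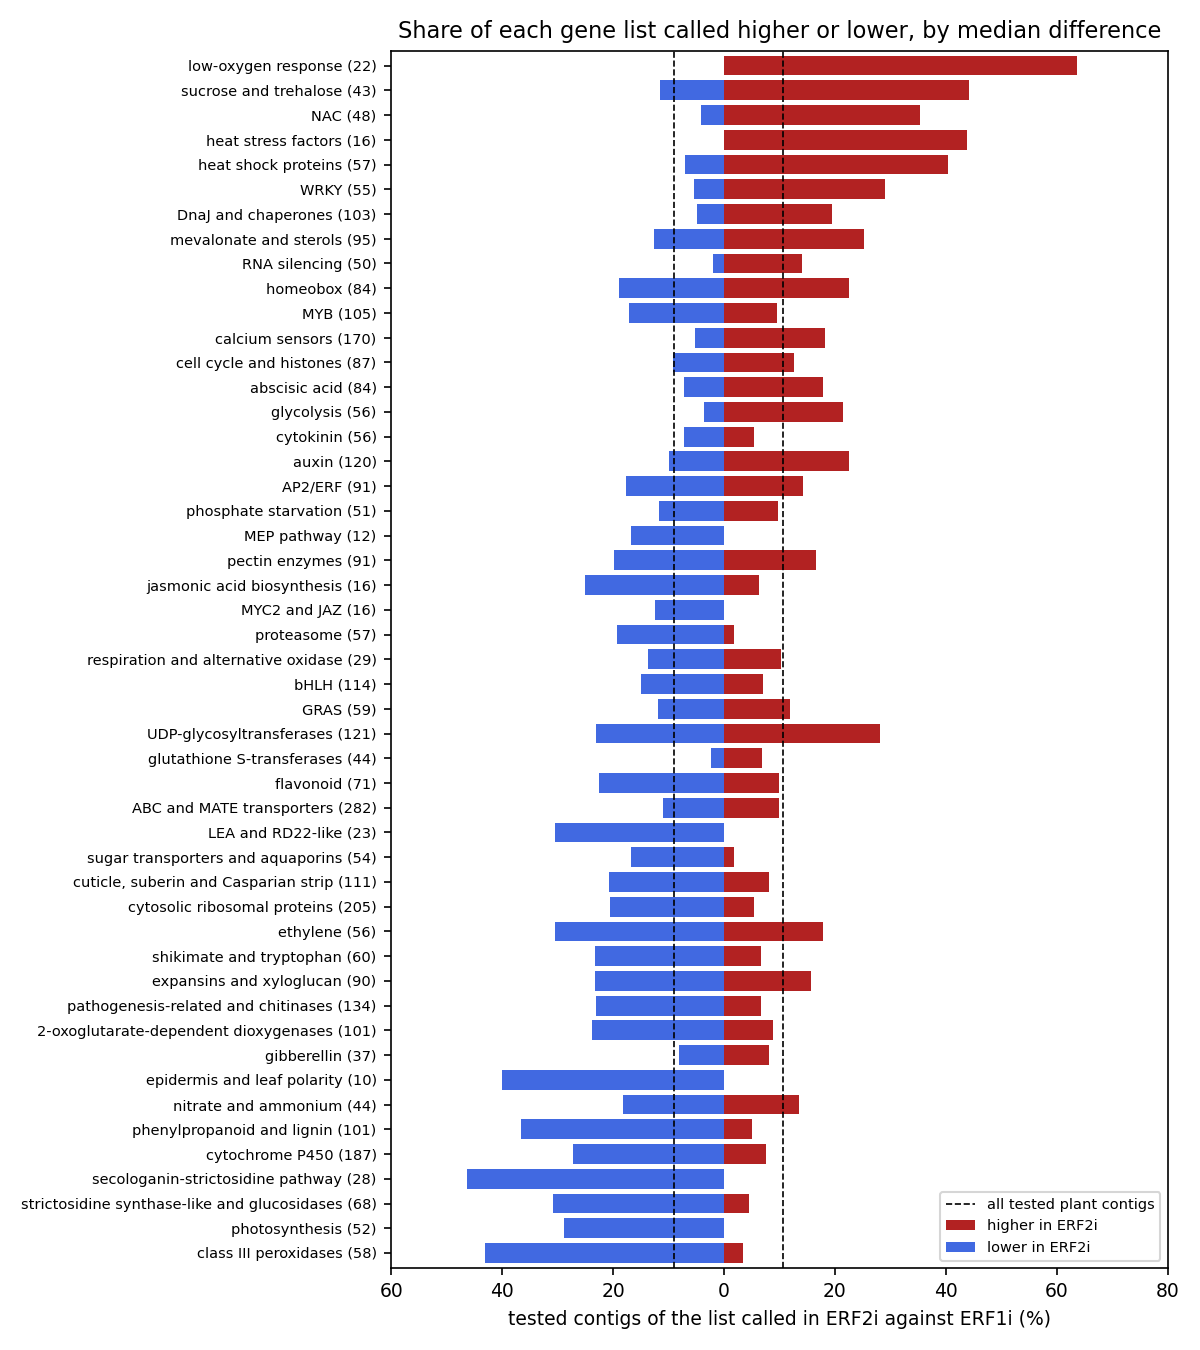
Share of the tested contigs (percent, number tested in parentheses) of each list with at least 10 tested contigs that were called lower (blue, to the left) or higher (red, to the right) in ERF2i against ERF1i, ordered by median difference. The dashed lines mark the shares over all tested plant contigs, 9.01% lower and 10.6% higher. The low-oxygen list reaches furthest to the right at 63.6%, and the secologanin-strictosidine list furthest to the left at 46.4%.

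GO terms, the annotation deposited with the contigs, were counted in the same way. Over 531 terms with at least 20 tested contigs the median share was 9.49% higher and 11.1% lower. The largest shares of higher contigs were in response to high light intensity (20 of 38, 52.6%) and iron-sulfur cluster binding (14 of 30, 46.7%). Next came 3 terms of callose synthesis that hold the same 21 contigs of 11 assembly genes (9, 42.9%). They were followed by carbohydrate phosphorylation (19 of 48, 39.6%) and response to heat (49 of 130, 37.7%), which shares contigs with high light intensity. Response to hydrogen peroxide had 16 of 48 higher (33.3%), and its count stayed at 15 or 16 with any library left out. The largest shares of lower contigs were in hydroquinone:oxygen oxidoreductase activity (16 of 23, 69.6%) and lignin catabolic process (16 of 24, 66.7%), both held by laccases, followed by the tricarboxylic acid cycle (16 of 33, 48.5%), lateral root formation (19 of 40, 47.5%) and membrane-anchored proteins (17 of 41, 41.5%). Threonine-type endopeptidases of the proteasome had 9 of 22 lower (40.9%), wax biosynthesis 8 of 21 (38.1%) and peroxidase activity 25 of 74 (33.8%). Without ERF2i-2, and without ERF2i-3 instead, the higher counts were 15 and 17 for high light, 3 and 5 for iron-sulfur binding, 0 and 1 for callose synthesis, 9 and 9 for carbohydrate phosphorylation, 28 and 30 for heat. The lower counts were 2 and 4 for hydroquinone oxidoreductases, 2 and 4 for lignin catabolism, 0 and 1 for the tricarboxylic acid cycle, 2 and 5 for lateral roots, 3 and 8 for anchored proteins, 0 and 0 for threonine endopeptidases, 0 and 1 for wax and 7 and 8 for peroxidases. Callose terms had 4 without ERF1i-19, the tricarboxylic acid cycle 7 without ERF1i-19 and 9 without either GUSi line, and threonine endopeptidases 6 without ERF1i-7 and 4 without ERF1i-19 or either GUSi line.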

How the data were processed

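The authors prepared strand-specific libraries from poly(A) RNA of 6 hairy root lines, sequenced them as read pairs on an Illumina HiSeq instrument and aligned them to a *de novo* assembly. The submitters' processing notes name Bowtie2 2.0, RSEM and DESeq. The deposited files give, per library and contig, an expected count (RSEM's estimate, not normalized) and FPKM (fragments scaled by contig length and library size, computed by the authors), and a table of descriptions, best hits and GO terms. Libraries held 11517610 to 13199946 expected counts, with 3.53% to 5.51% in the 10 most read contigs. The assembly has 59855 contigs of 47425 assembly genes (median 560 bp), and 139 of non-plant origin were left out of counts. No column lacked a sample.

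Expected counts were rounded to whole numbers (1 value was not whole within a tolerance of 0.001) and filtered with edgeR's filterByExpr by group (minimum count 10, minimum total 15), which left 33315 contigs, 33270 of them of plants. ERF2i was contrasted with ERF1i by edgeR 4.0.16 in R 4.3.3 (quasi-likelihood test, TMM, all 6 libraries in 3 groups, 3 residual degrees of freedom, Benjamini-Hochberg over all contigs tested). Scaling factors by TMM came to 0.918 and 0.909 in ERF2i, 1.02 and 1.02 in ERF1i and 1.08 and 1.06 in GUSi, and the biological coefficient of variation to 14.7%. Adjusted p-values in the text come from this test. GUSi was also contrasted with the midpoint of the ERF groups. No test of a list or GO term was made.

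Named contigs were the targets, the pathway contigs listed by the study, the 15 largest rises and 15 largest falls (mean of at least 5 CPM, both lines of one construct beyond both of the other, an informative description, no more than 1 from each assembly gene), the 6 largest differences in each place of GUSi, and up to 4 members with the lowest p in each of 50 lists; not all of these are printed. These lists and members were chosen with earlier results of these data known. Intervals of ratios are exact 95% intervals of counts pooled over 2 lines. Alternatives were DESeq2 1.42.0, its size factors, library totals alone, no filter, a mean FPKM of at least 2, only the 4 ERF libraries, limma 3.58.1 on log2(FPKM + 1), counts per assembly gene, a minimum log2 difference of 1, and leaving out every library in turn. Tables and plots were made with Python 3.11.15, pandas 2.3.3 and matplotlib 3.10.9.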

Additional observations from a re-analysis of the deposited data

Results flagged for a closer look

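At 5 of the leading contigs ERF2i and ERF1i differed from GUSi in opposite directions, each past the threshold (edgeR's quasi-likelihood test). The leading contigs were picked for a large difference between the ERF groups that passed the same test. Its outcome was therefore fixed by that choice and is no further evidence. Picking large differences between the ERF groups also favours opposite directions from GUSi. *OpERF1* (c15284_g1_i1) differed from GUSi by 2.14 (adjusted p = 0.0407) in ERF2i and by −3.86 (adjusted p = 0.0312) in ERF1i, and between the ERF groups by 6.01 (adjusted p = 0.00315). A thiosulfate sulfurtransferase 18-like contig (c1909_g1_i1), with 3 counts in ERF1i, differed by 1.87 (adjusted p = 0.0284) in ERF2i and by −4.43 (adjusted p = 0.0424) in ERF1i, and by 6.29 (adjusted p = 0.00315) between them, a fitted value that depends on how 0 counts are treated. The class II small heat shock contigs c24013_g2_i1 and c24013_g1_i1 differed from GUSi by 2.95 (adjusted p = 0.00411) and 3.03 (adjusted p = 0.00443) in ERF2i and by −3.23 (adjusted p = 0.0287) and −3.05 (adjusted p = 0.0382) in ERF1i, with 6.19 and 6.08 between the ERF groups. The class I contig c20110_g1_i1 differed by 2.28 (adjusted p = 0.0203) in ERF2i and by −2.94 (adjusted p = 0.0358) in ERF1i, and by 5.22 (adjusted p = 0.00273) between them. At the heat shock contigs GUSi-9 was above GUSi-10. These comparisons share the GUSi libraries.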

How the results depend on the processing

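Among the alternatives, the counts of higher and lower contigs were 2640 and 2273 by DESeq2, 3498 and 3044 with its size factors, 2485 and 5310 with library totals alone, 2590 and 1884 with no filter on low counts, 3300 and 2891 at a mean FPKM of at least 2, 2882 and 2279 with only the 4 ERF libraries, 2184 and 4234 by limma on log2(FPKM + 1), 2840 and 2389 per assembly gene, and 1757 and 1368 at a log2 difference of at least 1. GUSi lay nearer to ERF1i in 2666 contigs with library totals alone and 1100 with no filter, nearer to ERF2i in 79 with no filter, and beyond ERF2i in 175 with no filter. With 1 library left out the counts ran from 803 to 3540 higher, 212 to 3287 lower, 305 to 1769 with GUSi nearer to ERF1i, 14 to 619 nearer to ERF2i, 587 to 4315 between, 405 to 1968 beyond ERF1i and 23 to 654 beyond ERF2i. Of the 111 contigs named, 105 were called. Of these, 40 lost the call without ERF2i-2, 28 without ERF2i-3, 6 without ERF1i-7, 4 without ERF1i-19 and 2 without either GUSi line, 8 with no filter, 4 by DESeq2, 3 with only the 4 ERF libraries and 2 by limma. The sign turned only at contigs that were not called: log2 differences ran from −2.36 without ERF2i-3 to 0.05 without ERF1i-19 at *OpERF2* (c17706_g2_i1), and from −0.76 to 0.06 at tryptophan decarboxylase (c28648_g1_i1) and −0.08 to 0.03 at the WD repeat contig (c32159_g1_i1), without ERF2i-3 and without ERF2i-2. Of the 100 counts of higher or lower contigs in the 50 lists, 85 moved by over 1.5 times without ERF2i-2, 79 without ERF2i-3, 28 without ERF1i-7, 23 without ERF1i-19, 17 without GUSi-9, 18 without GUSi-10, 31 with library totals alone, 27 with no filter, 26 by limma, 17 by DESeq2 and 16 with only the 4 ERF libraries. A fit without 1 library leaves a construct with 1 line, which is then assumed to vary like the others. No paired analysis was possible because the groups share no replicate numbers.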

Other observations

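On log2 CPM over all contigs tested, the Euclidean distance between the 2 lines of a construct was 72.6 in ERF2i, 97.9 in ERF1i and 79.5 in GUSi. Lines of ERF2i and ERF1i were 138 to 167 apart, lines of ERF2i and GUSi 142 to 154, and lines of ERF1i and GUSi 112 to 135, so the distances of ERF1i-19 to both GUSi lines (134 and 135) stood above those of ERF1i-7 (114 and 112).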
